A study of Homo sapiens with 8 samples.

Results

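The genes described here are the 3 peroxisome proliferator-activated receptor (PPAR) genes and 7 genes of lipid sensing and fatty acid oxidation. They were listed by name: *PPARA*, *PPARD*, *PPARG*, *PLIN2*, *ANGPTL4*, *PDK4*, *CPT1A*, *CPT2*, *ACADVL* and *HADHA*. These are 10 of the 58051 genes counted, and all 10 were among the 17671 genes with enough reads to be tested. RNA came from A375, a human melanoma cell line, in 4 wild-type lines (WT1 to WT4), each grown from a single cell and so representing 1 clone. Each line was held for 12 h in DMEM with 10% fetal bovine serum (serum) or in DMEM with no serum (serum-free), which gave 4 libraries per condition and 1 library per line and condition. The series asked which transcripts, those of secreted factors above all, respond when serum is withdrawn. P-values that ignore the line therefore measure the spread between these 4 clones. Those that compare the conditions within each line measure how far that difference varies between the clones. The spread between cultures of 1 clone was not measured on its own. In a culture, fewer cells with a transcript and less of it per cell cannot be told apart.

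The libraries held 29759279 to 73341551 reads on genes, and the lowest count of any of the 10 genes in any library was 98 reads, for *ANGPTL4* in serum-free WT1 (exact Poisson interval 79.6 to 119, at 95% and for counting error only). Reads that aligned to several places made up 22.7% in serum WT1 and 16.8% in serum WT2, and 5.73% to 10.1% in the other libraries. The total here is the reads on 1 gene, on more than 1 gene or with several alignments, without reads on no gene. Only the labels tie the fourth line to the name WT4, since its deposited counts bear a different name. WT4 stood apart for several of the genes below, and results are therefore also given without it. Among melanocyte and melanoma markers, *AXL* (309 to 656 CPM, reads scaled to library size with edgeR's TMM factors), *MITF* (30.1 to 44.2) and *S100B* (13.6 to 34.9) were present, *PMEL* and *MLANA* did not exceed 0.943 and 1.44 CPM, *TYR* had at most 4 reads, and *SOX10*, a lineage factor, was listed at 0 in all 8 libraries. Of the exon length of *SOX10*, 5.39% is shared with 1 other gene, and the annotation release and strand setting of the counting are not known. Whether this 0 comes from the cells or from the counting was not tested. The summed level of the 9 markers was 549.6 to 717 CPM with serum and 378 to 635 CPM without. The blood and immune list summed to at most 0.205 CPM. The fibroblast list summed to 5.60 to 9.78 CPM, the hepatocyte list to 1.11 to 5.53 CPM and the epithelial list, almost all of it *KRT14*, to 11.8 to 21.7 CPM, with ranges that overlapped between conditions.

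PPARs are nuclear receptors that bind fatty acids and their derivatives and act on DNA as dimers with retinoid X receptors (RXRs). PPARα drives fatty acid oxidation in liver and other tissues, PPARδ is found in most cells and controls oxidation in muscle, and PPARγ is the master regulator of fat cell formation. Serum carries fatty acids and lipoproteins, and *PLIN2*, *ANGPTL4*, *PDK4* and *CPT1A* are textbook targets that respond to fatty acids through PPARs. For oxidation, long-chain fatty acids enter mitochondria by the carnitine shuttle, which includes CPT1 and CPT2, and are shortened there by enzymes that include ACADVL and HADHA.

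Without serum, the transcripts moved in opposite directions within the group. *PDK4* was 1.47 to 2.20 times its serum level in the 4 lines and *PPARA* 1.13 to 1.59 times, with *PPARA* above *PDK4* in WT4 alone. *CPT1A*, *CPT2*, *ACADVL*, *PPARD* and *HADHA* were higher by at most 24.1% in any line, while *ANGPTL4* was at 0.53 to 0.77 times its serum level and *PLIN2* and *PPARG* were lower by at most 21.3%. Each of the 10 genes had the same direction in all 4 lines, 7 higher and 3 lower. Among all tested genes, 55.4% had the same direction in all 4 lines, 28.8% higher and 26.6% lower. Without regard to line, 1 of the 10 genes, *PPARA*, passed edgeR's quasi-likelihood test (adjusted p under 0.05), against 25.1% of all genes tested. Of all genes, 11.1% rose and 14.0% fell, so that 44.1% of calls were rises. With upper-quartile scaling 57.6% were rises. With the line as a replicate block, in which each serum-free library is compared with the serum library of the same line, 8 of the 10 genes passed, 5 higher (*PPARA*, *PDK4*, *CPT1A*, *CPT2* and *ACADVL*) and 3 lower (*PPARG*, *PLIN2* and *ANGPTL4*), against 45.7% of all genes (23.2% higher and 22.4% lower). The CPM of the 2 conditions did not overlap for 2 of the 10 genes, *PPARA* and *CPT2*, against 27.5% of all genes. Where a sentence below says that a gene rose or fell "in the blocked fit", it passed with the line as a block and not in the edgeR fit of all 8 libraries without it.

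**Figure D1:**
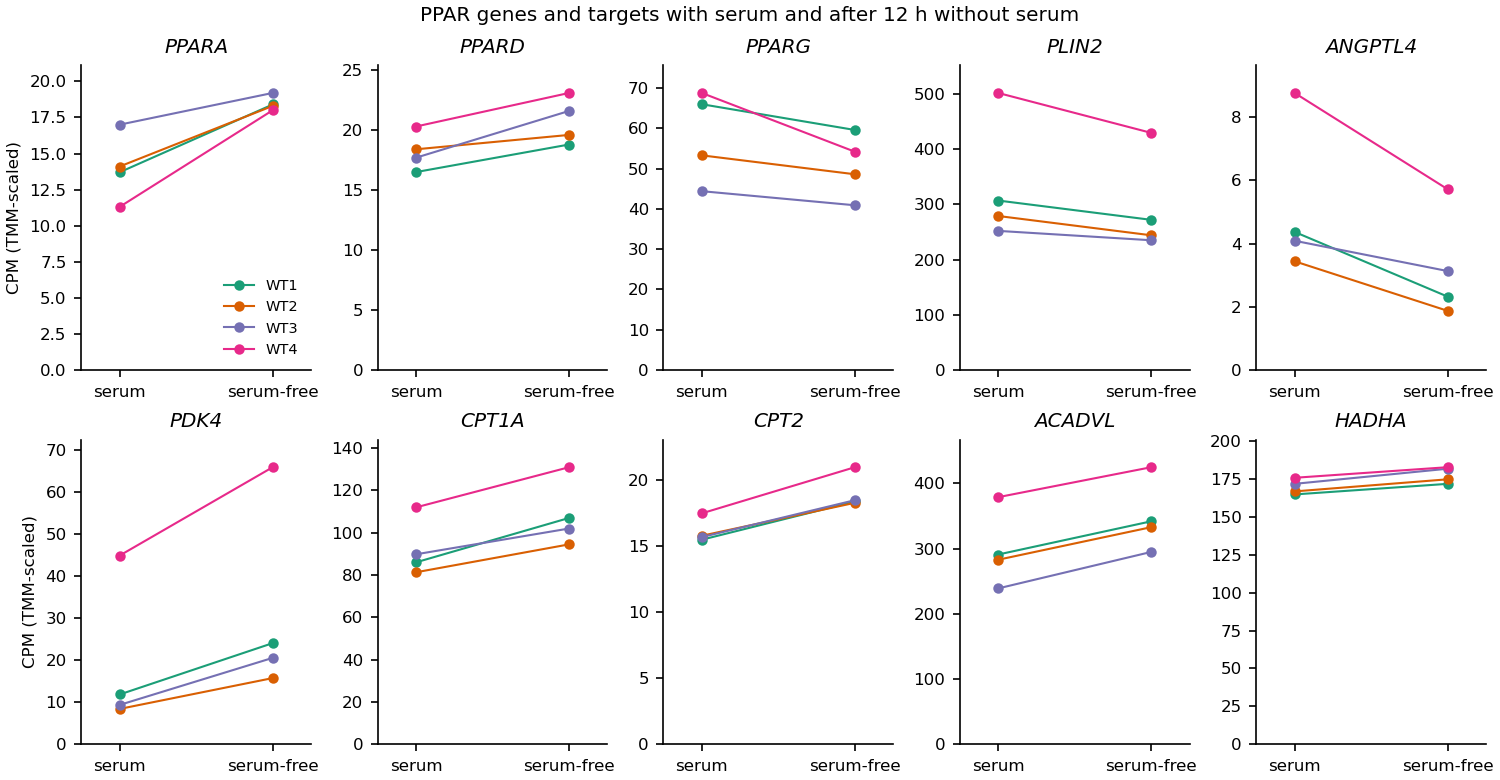
CPM (TMM-scaled) of each of the 10 genes in the 8 libraries, with serum and after 12 h without serum. Each line joins the 2 libraries of 1 clone, and each gene's 4 lines run in the same direction, with WT4 well above the other clones for *PDK4*, *PLIN2* and *ANGPTL4*.

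Among the receptors, *PPARA* (ENSG00000186951, chromosome 22 of GRCh38, 46150526 to 46243756) rose. It was at 13.7, 14.1, 17.0 and 11.3 CPM with serum in WT1 to WT4, and at 18.4, 18.3, 19.2 and 18.0 CPM without. Every serum-free library was above every serum library, and the serum-free libraries lay close together (18.5 ± 0.506 CPM against 14.0 ± 2.35 CPM, SD, n = 4). The log2 fold change was 0.39 (SE 0.12, adjusted p = 0.0375 from edgeR) and 0.40 with the line as a block (adjusted p = 0.00198). WT4 had the lowest *PPARA* level with serum and the largest within-line difference (0.67 on the log2 scale), and WT3 had the highest level and the smallest difference (0.17). Without the block, the call was lost when serum WT1, serum WT2 or any 1 of the 4 serum-free libraries was left out, or both libraries of WT1 or of WT2 (adjusted p up to 0.163 over 12 such fits), and also when genes were not filtered (adjusted p = 0.0515), whereas all 6 fits with the block kept it (adjusted p 0.00137 to 0.0128).

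*PPARD* (ENSG00000112033, chromosome 6, 35342558 to 35428178) was at 16.5, 18.4, 17.7 and 20.3 CPM with serum in WT1 to WT4 and at 18.8, 19.6, 21.6 and 23.1 CPM without. The 2 ranges overlapped, although each line was higher without serum. The log2 fold change of 0.19 (SE 0.10) did not pass the test (edgeR's adjusted p = 0.189, and 0.0542 with the block). *PPARG* (ENSG00000132170, chromosome 3, 12287368 to 12434344) was at 66.0, 53.3, 44.4 and 68.8 CPM with serum and at 59.6, 48.6, 40.9 and 54.2 CPM without. The lines kept most of their order and differed from each other by more than the conditions did. The log2 fold change was −0.19 (SE 0.16, adjusted p = 0.399), and *PPARG* fell in the blocked fit (−0.19, adjusted p = 0.0228). With a library left out the unblocked value ran from −0.30 (without serum WT3) to −0.10 (without serum WT4) and did not pass. WT4 had the largest within-line decrease (−0.35), and the other lines lay between −0.15 and −0.12. In the blocked fit the call was lost without WT1 (adjusted p = 0.0664) or WT2 (adjusted p = 0.0622), and without WT4 the value was −0.13 (adjusted p = 0.0374). With the GC correction described below the call was lost as well (−0.047, adjusted p = 0.589).

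Of the lipid-sensing targets, *PDK4* (ENSG00000004799, chromosome 7, 95583499 to 95596516) had the largest log2 fold change of the 10 genes in the fits of all 8 libraries. It encodes a kinase that switches off pyruvate dehydrogenase and so spares glucose carbon when fatty acids are burned. *PDK4* was at 11.8, 8.37, 9.32 and 44.8 CPM with serum in WT1 to WT4 and at 24.0, 15.7, 20.5 and 65.8 CPM without. WT4 was above all other libraries in each condition, and its serum library was above the serum-free libraries of the other 3 lines. Within lines the log2 differences were 1.02, 0.90, 1.14 and 0.55. Without regard to line, the log2 fold change was 0.78 (SE 0.69) and did not pass (edgeR's adjusted p = 0.456), while *PDK4* rose in the blocked fit by 0.89 (SE 0.091, adjusted p = 3.33e-06), or 1.85-fold. The unblocked value was 0.12 without serum-free WT4 and 1.68 without serum WT4. Without both libraries of WT4 it rose also without a block (1.03, adjusted p = 0.00457).

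*ANGPTL4* (ENSG00000167772, chromosome 19, 8364155 to 8374370) encodes a secreted inhibitor of lipoprotein lipase and was the gene with the largest decrease of the 10. Its levels were 4.37, 3.44, 4.09 and 8.77 CPM with serum in WT1 to WT4 and 2.32, 1.87, 3.13 and 5.72 CPM without. The serum-free level in WT4 was above the serum levels of the other 3 lines, so the conditions overlapped. The within-line log2 differences were −0.90, −0.86, −0.38 and −0.61. *ANGPTL4* fell in the blocked fit (log2 fold change −0.69, SE 0.14, adjusted p = 0.00106 from edgeR), and the value without the block was −0.66 (SE 0.41, adjusted p = 0.271). The unblocked value was −0.28 without serum WT4 and −1.08 without serum-free WT4. Without WT4 it fell in both fits (log2 fold change −0.70 without the block, adjusted p = 0.0440, and −0.72 with it, adjusted p = 0.00109).

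*PLIN2* (ENSG00000147872, chromosome 9, 19108388 to 19127492) encodes the coat protein found on lipid droplets of most cells. It was at 307, 279, 252 and 502 CPM with serum in WT1 to WT4 and at 272, 244, 235 and 429.6 CPM without. WT4 was above all other libraries in each condition. The log2 fold change without the block was −0.18 (SE 0.27, edgeR's adjusted p = 0.667), and it was 0.079 when serum WT4 was left out. In the blocked fit *PLIN2* fell by 0.17 on the log2 scale (adjusted p = 0.0124). This call was lost when WT1 or WT2 was left out (adjusted p = 0.0652 and 0.0717).

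The 250 bases upstream of the RefSeq start site are printed for *PDK4* and *ANGPTL4*, the 2 genes with the largest rise and fall, as they read on each gene's strand in GRCh38.p14. Capitals mark the only matches to 5 motifs searched on both strands, a CCAAT box on the opposite strand of *PDK4* (117 to 113 bases upstream) and a TATA box of *ANGPTL4* (TATAAA, 29 to 24 bases upstream). The *PDK4* window is chr7:95596517-95596766 on the minus strand, with 62.8% GC, and the *ANGPTL4* window is chr19:8363905-8364154 on the plus strand, with 68.8% GC, against a median of 58.0% over all RefSeq windows.
PDK4: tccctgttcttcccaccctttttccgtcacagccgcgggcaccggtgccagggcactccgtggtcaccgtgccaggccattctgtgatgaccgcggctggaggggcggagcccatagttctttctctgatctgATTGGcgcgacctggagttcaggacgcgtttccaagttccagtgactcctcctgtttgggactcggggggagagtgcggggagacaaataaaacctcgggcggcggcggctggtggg
ANGPTL4: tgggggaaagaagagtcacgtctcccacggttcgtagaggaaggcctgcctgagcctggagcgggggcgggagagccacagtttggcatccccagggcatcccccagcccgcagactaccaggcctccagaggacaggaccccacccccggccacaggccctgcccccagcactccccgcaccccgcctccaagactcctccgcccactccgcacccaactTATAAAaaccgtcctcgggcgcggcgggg
The other motifs were a direct repeat of nuclear receptor half-sites with a 1-base spacer, the element that PPAR and RXR dimers bind (AGGTCANAGGTCA), the half-site alone (AGGTCA, which the repeat contains) and a FOXO site (GTAAACA). The repeat was in none of the 17 windows of the 10 genes and in 6 of all 35116 windows (0.0171%), and the FOXO site was in none of the 17 and in 2.98% of all. The half-site was in 3 of the 17, all of *PPARG* (12.1% of all windows), and 2 of these windows overlap and hold the same half-site and the same TATA box. TATAAA was in 5 windows, of *ACADVL*, *ANGPTL4*, *PLIN2* and *PPARG* (10.7% of all), and CCAAT in 4, of *PDK4*, *PPARA*, *PPARD* and *PPARG* (32.0% of all). A match is a run of letters, and binding was not measured. The repeat is so rare among all windows that its absence from 17 of them carries no information. Sites outside the 250 bases or spelled otherwise were not searched.

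The carnitine shuttle genes were both higher without serum. *CPT1A* (ENSG00000110090, chromosome 11, 68754620 to 68844277), the enzyme that sets the rate of fatty acid entry into mitochondria, was at 86.0, 81.3, 89.8 and 112 CPM with serum in WT1 to WT4 and at 107, 94.5, 102 and 131 CPM without. The conditions overlapped through the serum library of WT4, which was above 3 of the serum-free libraries. *CPT1A* rose in the blocked fit by 0.24 (SE 0.053, adjusted p = 0.00221 from edgeR), and the same value did not pass without the block (SE 0.12, adjusted p = 0.188). Without serum WT4 the unblocked value was 0.34 and passed (adjusted p = 0.0388), and without serum-free WT4 it was 0.13. All 6 fits with a block called it (adjusted p 1.31e-04 to 0.0349).

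*CPT2* (ENSG00000157184, chromosome 1, 53196824 to 53214197), the enzyme on the inner membrane, was at 15.5, 15.8, 15.7 and 17.5 CPM with serum and at 18.4, 18.3, 18.5 and 21.0 CPM without. Every serum-free library was above every serum library, and the 4 within-line differences (0.25, 0.21, 0.24 and 0.26) were more alike than those of the other genes that passed. *CPT2* rose in the blocked fit (0.24, SE 0.075, adjusted p = 0.0177 from edgeR) and missed the threshold without it (SE 0.086, adjusted p = 0.0678). With DESeq2 the adjusted p was 0.0435. In the blocked fit the call was lost when WT1, WT2 or WT3 was left out (adjusted p up to 0.0738). Of the exon length of *CPT2*, 12.4% is shared with 2 other genes, and the strand setting of the counting is not known, so a part of its reads is uncertain.

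Of the 2 matrix oxidation enzymes, *ACADVL* passed in the blocked fit and *HADHA* in neither fit. With the GC correction described below neither passed, and the difference between them was not tested. *ACADVL* (ENSG00000072778, chromosome 17, 7217125 to 7225266), the first dehydrogenase for very long chains, was at 291, 283, 239 and 379 CPM with serum and at 342, 333, 295 and 425 CPM without. Each line was higher without serum, but WT4 with serum was above the serum-free libraries of the other lines. *ACADVL* rose in the blocked fit (0.23, SE 0.051, adjusted p = 0.00179 from edgeR; adjusted p = 0.302 without the block). The unblocked value was 0.36 without serum WT4, 0.13 without serum WT3 and 0.12 without serum-free WT4. *HADHA* (ENSG00000084754, chromosome 2, 26190635 to 26244632), the α-subunit of the trifunctional protein, was at 165, 167, 172 and 176 CPM with serum and at 172, 175, 182 and 183 CPM without. The lines lay close together, and the within-line differences were 0.056 to 0.082. The log2 fold change of 0.068 (SE 0.056) did not pass in either fit (adjusted p = 0.406, and 0.298 with the block), nor in any of the 6 fits with a block.

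**Figure D2:**
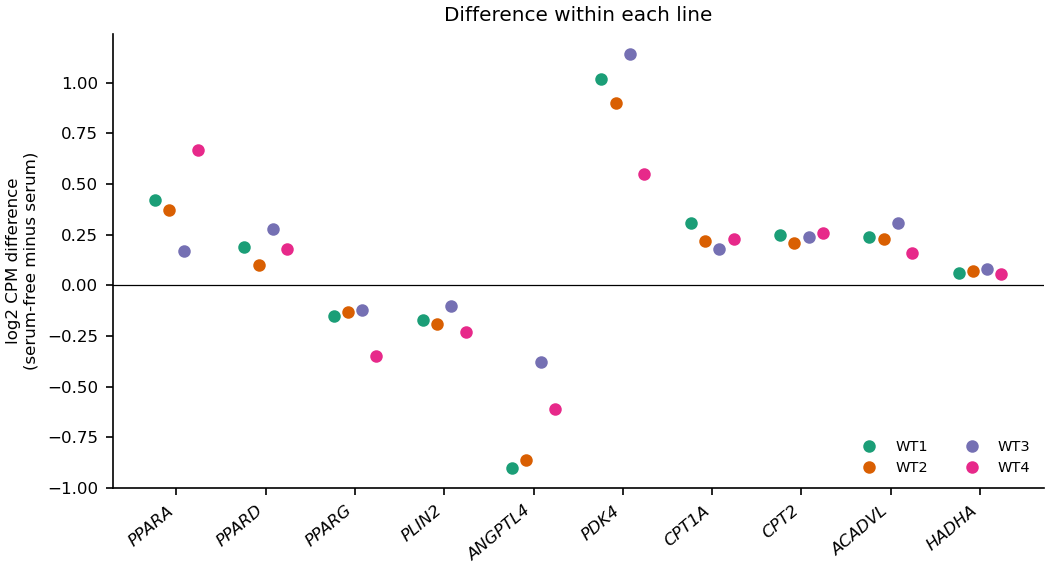
Difference in log2 CPM, serum-free minus serum, for each gene within each of the 4 lines, 1 point per line. *PDK4* lies between 0.55 and 1.14 and *ANGPTL4* between −0.90 and −0.38, while the points of *HADHA* lie between 0.056 and 0.082.

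The GC content of a transcript moved with these differences. Across the 17425 tested genes with known GC content, the log2 fold change correlated with GC content (Spearman 0.358, across genes, which are not independent replicates). When each library was corrected for GC content in the blocked fit, 6 of the 10 genes passed, *PPARA*, *PDK4*, *CPT1A* and *CPT2* as rises and *ANGPTL4* and *PLIN2* as falls, against 46.1% of all genes. *ACADVL*, with 58.8% GC, had a corrected value of 0.042 (adjusted p = 0.427 from edgeR), and *PPARG*, with 39.7% GC, one of −0.047 (adjusted p = 0.589), so neither call held. The value of *PPARD* (59.0% GC) was −0.0078 after correction (adjusted p = 0.940). The corrected decrease of *ANGPTL4* (63.3% GC) was larger, at −0.95 (adjusted p = 9.25e-05), as were the corrected rises of *PDK4* (39.4% GC, 1.02, adjusted p = 8.86e-05) and *CPT2* (38.5% GC, 0.40, adjusted p = 2.56e-04). *PPARA* changed little, at 0.38 (adjusted p = 0.00137).

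**Figure D3:**
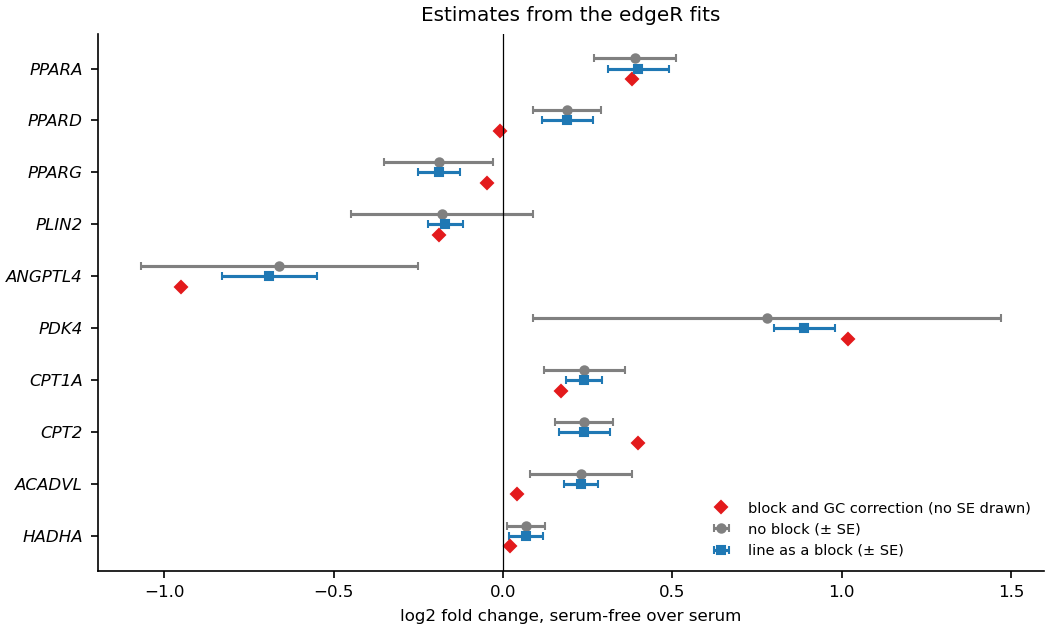
Log2 fold changes, serum-free over serum, from edgeR without a block (gray), with the line as a block (blue) and with the block and a GC correction (red), with bars of 1 SE for the gray and blue points. The block narrows the bar of *PDK4* from an SE of 0.69 to 0.091, and the correction brings *PPARD*, *PPARG*, *ACADVL* and *HADHA* to between −0.047 and 0.042.

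WT4 was the highest of the 4 lines in both conditions for 8 of the 10 genes, all but *PPARA* and *PPARG*, against 18.1% of all tested genes. The ratio of WT4 to the mean of the other lines was largest for *PDK4* (4.55 with serum and 3.27 without), followed by *ANGPTL4* (2.21 and 2.34) and *PLIN2* (1.80 and 1.72). It was smaller for *ACADVL* (1.40 and 1.31) and *CPT1A* (1.30 in both conditions), and near 1 for *HADHA* (1.05 and 1.04). With serum, *PPARA* was the only one of the 10 genes with a lower level in WT4 than the mean of the others (ratio 0.756). When both libraries of WT4 were left out, 5 of the 10 genes passed without a block, *PPARA*, *PDK4*, *CPT1A* and *CPT2* as rises and *ANGPTL4* as a fall, against 31.7% of all genes in that fit. With the block and without WT4, 9 passed, all but *HADHA*, against 50.3% of all genes. Both shares of all genes were higher than with WT4. With 1 library of WT4 per condition, what sets this line apart was not tested.

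Per length, the genes differed widely in level. In RPKM, which is CPM per kilobase of merged exons, *PLIN2* (66.8 ± 22.7 with serum and 58.9 ± 18.2 without, SD, n = 4) and *ACADVL* (61.8 ± 12.2 and 72.4 ± 11.4) were above at least 96.3% of the 17425 genes with a length. *HADHA* followed at 39.2 and 41.1 RPKM and *CPT1A* at 14.0 and 16.5 RPKM. The other 6 were above 35.9% to 67.4% of all genes, whose median was 2.75 RPKM with serum and 2.93 without: *PPARG* at 4.85 and 4.24, *PPARD* at 4.09 and 4.66, *PDK4* at 4.09 and 6.93, *ANGPTL4* at 2.09 and 1.32, *CPT2* at 1.60 and 1.89, and *PPARA* at 1.06 and 1.40 RPKM. With merged exons, *PLIN2* and *ACADVL* did not differ by more than their spread over lines, and neither did *PPARG*, *PPARD* and *PDK4*, nor *ANGPTL4* and *CPT2*. By mean, *PLIN2* led with serum and *ACADVL* without, whereas with the longest transcript *PLIN2* led in both conditions (177 against 127 RPKM with serum and 156 against 148 without). The order of *PPARG* and *PPARD* without serum also depended on the length used, since *PPARG* was at 11.2 and *PPARD* at 5.50 RPKM with the longest transcript. *PPARA* was the lowest of the 3 receptor genes with either length, at 1.39 and 1.83 RPKM with the longest transcript.

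Within families, the mix of transcripts was compared as shares of RPKM, with an exact two-sided permutation test over the 8 libraries (70 arrangements, smallest possible p 0.0286) and Benjamini-Hochberg adjustment over 6 shares. *PLIN2* made up 75.8 ± 4.27% of perilipin transcripts with serum and 68.7 ± 4.39% without (SD, n = 4, exact p = 0.0571, adjusted 0.286), with a lower share in 4 of 4 lines. *PDK4* made up 42.9, 32.3, 35.6 and 68.2% of the 4 pyruvate dehydrogenase kinase transcripts with serum in WT1 to WT4 and 53.0, 43.8, 49.8 and 73.1% without. Its share was higher in 4 of 4 lines, but the lines differed by more than the conditions (exact p = 0.371, adjusted 0.446). The difference in this share was 10.2 percentage points, 18.0 without serum WT4 and 4.13 without serum-free WT4. *PPARA* made up 10.8 ± 2.78% of PPAR transcripts with serum and 13.6 ± 1.14% without (exact p = 0.114, adjusted 0.286), *PPARD* 41.0 and 45.3% (exact p = 0.200, adjusted 0.300) and *PPARG* 48.2 and 41.1% (exact p = 0.143, adjusted 0.286), each in the same direction in 4 of 4 lines. *CPT1A* made up 98.8 and 98.6% of the 3 CPT1 transcripts (exact p = 0.543, adjusted 0.543). None of the 6 shares passed. All shares used merged exons and depend on that length. With the longest transcript, *PPARG* was at 12.8 RPKM with serum and 11.2 without, *PPARD* at 4.83 and 5.50, and *PPARA* at 1.39 and 1.83. Shares with the longest transcript were not computed. With exact sign flips within lines, in place of the block, 4 pairs cannot give a p below 0.125, which 5 of the 6 shares had, all but that of *CPT1A* (exact p = 0.375).

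**Figure D4:**
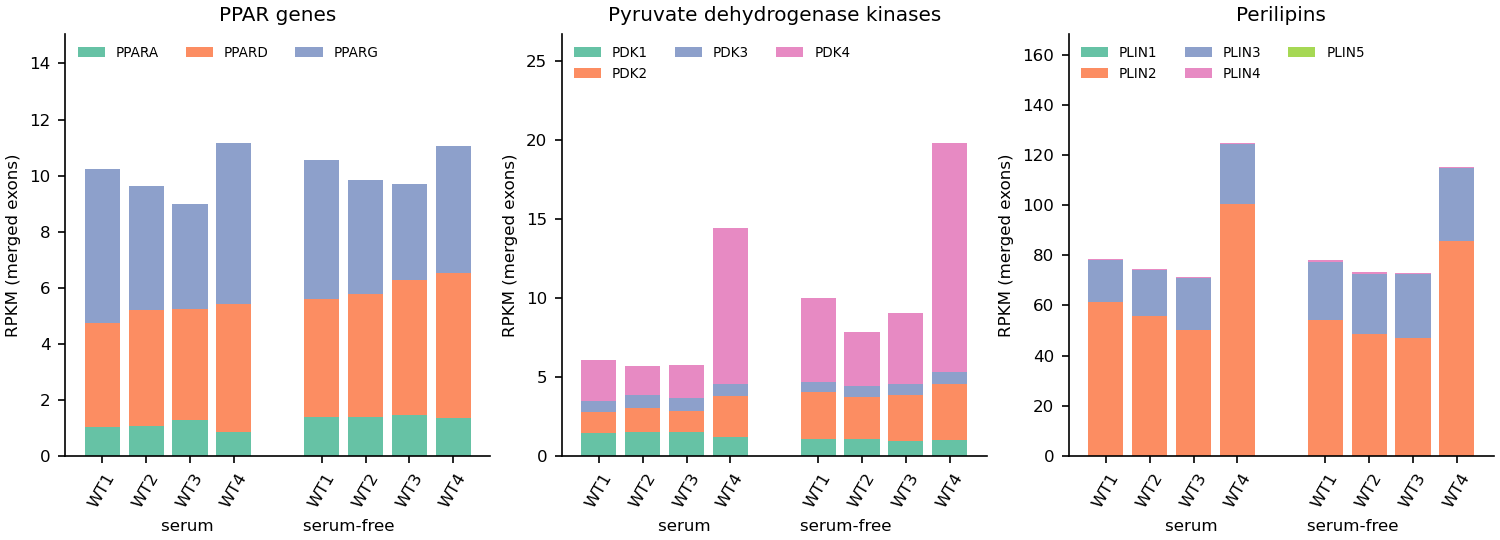
RPKM of the PPAR genes, the pyruvate dehydrogenase kinases and the perilipins in each library, stacked by gene and grouped by condition. With the merged exons drawn, *PDK4* is the largest part of the kinase bar in all 8 libraries, from 32.3% in serum WT2 to 73.1% in serum-free WT4. With the longest transcript, *PDK2* (2.52 RPKM) is above *PDK4* (2.32 RPKM) in serum WT2. *PLIN2* and *PLIN3* make up nearly all of each perilipin bar.

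The genes that share these pathways were followed on 7 lists with 102 genes, of which 85 were tested. The counts of genes that passed are to be read against 25.1% of all tested genes without the block, 45.7% with it and 46.1% with the block and GC correction. From each list the 3 tested genes with the smallest p are named. Among partners and coregulators of PPARs, 6 rose and 3 fell of 16 tested without the block (9 and 4 with it), with a median log2 fold change of 0.21 against 0.033 over all tested genes. With the block and GC correction 8 rose and 4 fell, and the median was 0.11 against 0.014 over all genes. *RXRB*, a dimer partner, rose from 26.8 to 34.3 CPM with serum to 40.9 to 46.6 CPM without (log2 fold change 0.60, adjusted p = 0.00262 from edgeR). The corepressor *NRIP1* rose by 0.51 (adjusted p = 0.00593), from 104 to 137 CPM with serum to 155 to 194 CPM without. The coactivator *PPRC1* fell by 0.30 (adjusted p = 0.00770), with 193 to 213 CPM with serum and 154 to 169 CPM without. The coactivator *PPARGC1A* had too few reads to be tested, at most 46 in any library and 0 in both libraries of WT4.

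Among mitochondrial β-oxidation genes beyond the 10, 2 rose and 2 fell of 16 tested (3 and 4 with the block), with a median of 0.033, equal to that of all genes. With the block and GC correction 3 rose and 5 fell, and the median was −0.052 against 0.014. *SLC25A20*, the carnitine-acylcarnitine carrier between CPT1 and CPT2, fell by 0.28 (adjusted p = 0.0257 from edgeR), from 18.8 to 19.6 CPM with serum to 15.0 to 16.7 CPM without. *DECR1*, needed for unsaturated fatty acids, rose by 0.34 (adjusted p = 0.0278), and *ETFB*, a subunit of the electron carrier that serves the acyl-CoA dehydrogenases, rose by 0.56 (adjusted p = 0.0286). The conditions did not overlap for *SLC25A20* or for *DECR1* (10.3 to 12.3 CPM with serum and 13.5 to 14.6 CPM without), and they did for *ETFB* (18.3 to 30.6 and 29.9 to 40.3 CPM). *HADHB*, the other subunit of the trifunctional protein, had a log2 fold change of −0.0072 (adjusted p = 0.948); it falls outside the naming rule and was chosen after its values were seen. In peroxisomes, where oxidation of very long chains begins, 2 rose and 2 fell of 12 tested (5 and 2 with the block, median 0.13). After GC correction in the blocked fit 9 rose and 2 fell (median 0.17). *EHHADH* rose by 0.56 (adjusted p = 0.0426), the thioesterase *ACOT8* rose by 0.44 (adjusted p = 0.0397) and the transporter *ABCD3* fell by 0.33 (adjusted p = 0.0323).

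Among genes of fatty acid uptake and activation, 2 rose and 1 fell of 14 tested (3 and 4 with the block), with a median of 0.033. After GC correction in the blocked fit 4 rose and 3 fell (median 0.16). The transport proteins *SLC27A1* and *SLC27A3* both rose by 0.96 (adjusted p = 0.00112 and 0.00437 from edgeR). *SLC27A1* went from 18.9 to 25.4 CPM with serum to 37.5 to 48.5 CPM without, and *SLC27A3* from 6.40 ± 1.22 to 12.4 ± 2.17 CPM (SD, n = 4). *FABP5*, a fatty acid binding protein that can pass ligands to PPARδ, fell by 0.60 (adjusted p = 0.0211), from 43.1 to 64.8 CPM to 27.1 to 40.9 CPM. The scavenger receptor *CD36* had at most 15 reads in any library and was not tested.

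Among lipid droplet and lipolysis genes, 3 rose and 1 fell of 10 tested (6 and 1 with the block, median 0.27). GC-corrected and blocked values gave 5 rises and 1 fall (median 0.13). The 2 lipases *PNPLA2* (0.45, adjusted p = 0.0381 from edgeR) and *LIPE* (0.85, adjusted p = 0.0263) rose, as did *DGAT2*, which makes triglyceride (0.68, adjusted p = 0.0134). *PNPLA2* was at 60.3 to 92.6 CPM with serum and 88.8 to 110.1 CPM without, *LIPE* at 1.86 to 3.70 and 3.89 to 4.98 CPM, and *DGAT2* at 2.97 to 3.58 and 4.60 to 6.34 CPM. *CIDEC*, which promotes droplet fusion, had 0, 1, 0 and 4 reads with serum in WT1 to WT4 and 6, 13, 7 and 88 reads without. It was not tested and, being outside the naming rule, was chosen after its values were seen. Beside these genes, the summed level of 6 adipocyte markers, which include *LIPE* and *CIDEC*, was 1.93 to 4.02 CPM with serum and 4.16 to 6.61 CPM without, while *ADIPOQ* and *LEP* had at most 1 read and *FABP4* at most 5 reads in any library. *PLIN1* had at most 8 reads, so *LIPE*, itself a droplet gene, made up most of this sum. The sum is therefore no measure apart from the droplet genes, and the part of adipocytes in their values was not tested.

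In the control of pyruvate dehydrogenase and of malonyl-CoA, the inhibitor of CPT1, 3 rose and 2 fell of 12 tested (the same numbers with the block, median −0.069). With the block and GC correction 4 rose and 3 fell, and the median was above 0, at 0.074. *MLYCD*, which degrades malonyl-CoA, rose by 0.86 (adjusted p = 0.00460 from edgeR), from 7.49 to 10.6 CPM with serum to 13.3 to 19.1 CPM without. *ACACB*, which makes malonyl-CoA at mitochondria, also rose (0.43, adjusted p = 0.0164). *PDK1* fell by 0.45 (adjusted p = 0.0123), from 17.5 to 22.8 CPM to 14.2 to 16.3 CPM. *PDK2* rose by 0.82 (adjusted p = 0.0208); it falls outside the naming rule and was chosen after its values were seen. Of the other PPAR targets listed, 5 of 12 had enough reads, and 2 rose and none fell, with the block or without (median 0.24). GC-corrected and blocked values gave 2 rises and 1 fall (median 0.087). *LPIN1* rose by 0.62 (adjusted p = 0.00295) and the thioesterase *ACOT2* by 0.44 (adjusted p = 0.0143), while *UCP2* had a log2 fold change of −0.22 (adjusted p = 0.195) and fell with the block and GC correction (−0.38, adjusted p = 0.00654). *FGF21*, a hormone made under PPARα in liver, had 0 reads in all 8 libraries. *ACOT2* and its near copy *ACOT1* can share reads, so the split between them is uncertain.

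Of the 20 genes named from these lists that passed without the block, 5 (*RXRB*, *SLC27A1*, *SLC27A3*, *MLYCD* and *LPIN1*) also passed in each of 12 fits without 1 library or 1 line. The other 15 lost their call in at least 1 of the 12, and each of these did so without both libraries of WT1. Of these, *EHHADH* passed in 1 of the 12 fits, *ACOT8* and *PNPLA2* in 2, *DECR1* and *LIPE* in 3, and *SLC25A20*, *ETFB* and *ABCD3* in 4. The calls of *SLC25A20*, *DECR1* and *EHHADH* were also lost without a filter (adjusted p = 0.109, 0.104 and 0.0837 from edgeR), and those of *SLC25A20* and *ABCD3* with upper-quartile scaling (adjusted p = 0.0681 and 0.0645). All 20 passed with the line as a block, and all 20 with the block and GC correction. In the blocked fit *SLC25A20* lost its call without WT2 (adjusted p = 0.0593) or WT3 (adjusted p = 0.0522). The GC correction with the block moved 6 values by over 1.5 times. These were *PNPLA2* (to 0.18), *ABCD3* (to −0.14), *ACOT2* (to 0.27), *PDK1* (to −0.29), *DECR1* (to 0.52) and *PPRC1* (to −0.45).

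**Figure D5:**
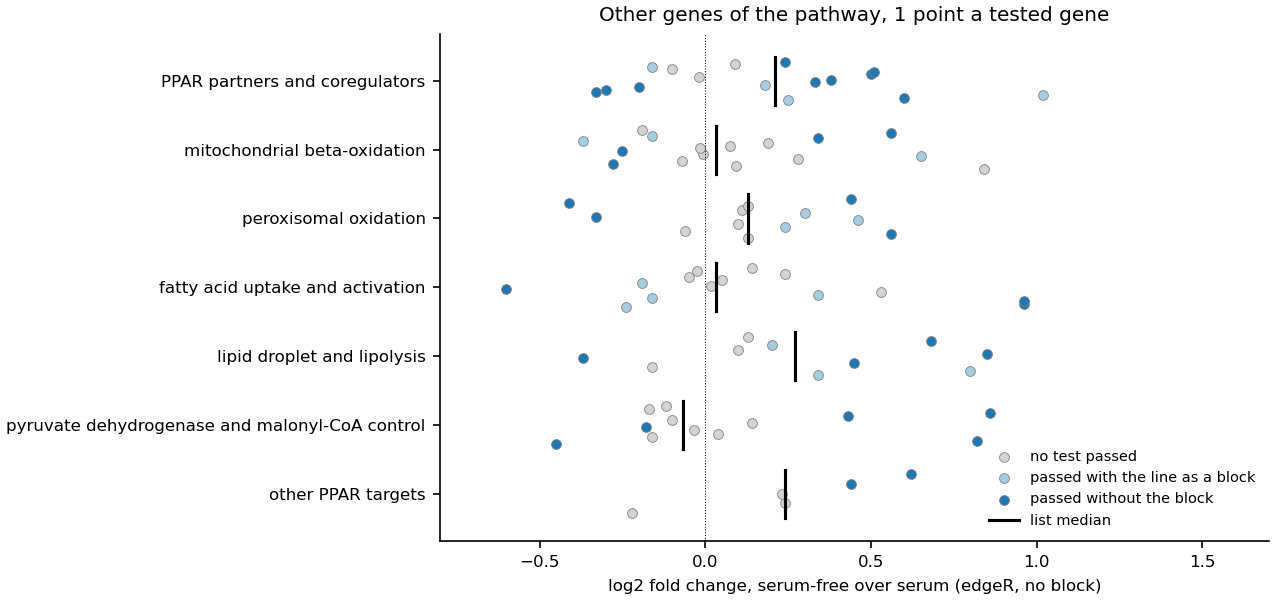
Log2 fold change without the block for each tested gene on the 7 lists, 1 point per gene, colored by whether it passed edgeR's test without the block, only with the block, or in neither fit. Black bars mark list medians, from −0.069 for pyruvate dehydrogenase and malonyl-CoA control to 0.27 for lipid droplets and lipolysis; with the block and GC correction, which is not drawn, the lowest is −0.052 (mitochondrial β-oxidation) and the highest 0.17 (peroxisomal oxidation).

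For 4 of the targets, the protein-coding genes with the most similar log2 CPM over the 8 libraries were looked up among 13573 genes, by Pearson's correlation and as a description, since each line gives 2 of the 8 points and WT4 lies far from the rest. For *PDK4* these were *HOXC9* (0.988), *MAMLD1* (0.988) and *TRAPPC14* (0.985). For *PLIN2* they were *GDE1* (0.988), *ERRFI1* (0.981) and *QRFPR* (0.973), and for *ANGPTL4* *LONRF3* (0.973), *TTC39C* (0.960) and *CHRNA10* (0.952). For *CPT1A* they were *MSC* (0.989), *ST8SIA5* (0.986) and *ARHGAP31* (0.985). None of these 12 genes passed the test between conditions without the block (adjusted p 0.136 to 0.849 from edgeR).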

How the data were processed

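Per the labels, total RNA of the 8 cultures was depleted of ribosomal RNA and sequenced in pairs. The deposited values are unnormalized read counts, 1 whole number per gene from HTSeq on GRCh38, and the submitters' notes also name cutadapt and TopHat2 2.0.11. Neither the annotation release nor the strand setting is given in the sources used here, which leaves overlapping genes uncertain. The study's methods describe FPKM values on another build, which were not used. Reads on more than 1 gene or with several alignments were not counted on any gene. The former were 8.23% to 11.5% of the sum of these reads and those on 1 gene. Symbols were matched for 55604 of 58051 Ensembl identifiers. The counts are on GRCh38, whereas lengths and GC content of genes were read from GENCODE models on GRCh37. Positions and promoters are from RefSeq on GRCh38.p14.

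After filterByExpr and TMM scaling, the quasi-likelihood test of edgeR 4.0.16 (R 4.3.3, robust glmQLFit) was run, with Benjamini-Hochberg adjustment over 17671 genes and a threshold of 0.05. Log2 CPM used a prior count of 2. The main fit has no block, since the study's methods name no pairing for its Cufflinks comparison, although they state paired tests for cell culture experiments. Libraries with the same number come from the same line, as the labels state, and their deviations from the condition means correlated at 0.403 to 0.604, against at most 0.126 between lines, so values with the line as a replicate block stand beside results whose call they change. Alternatives were that block alone and with a GC correction, DESeq2 1.42.0, limma 3.58.1 (voom), RLE and upper-quartile scaling, protein-coding genes only, a minimum of 10 counts in every library or no filter, and each library and line left out. The block with a line left out was added after seeing the data. Both fits were also run on simulated data, with 17761 genes tested and 199 of them given a log2 value of 1 or -1. The fit without the block found 72.9% of these 199 and made no false calls (0%). The blocked fit found 94.5%, with 3.59% of calls false. Smaller values, which all 10 genes had in both fits of the real libraries, were not tested in this way. Whether these rates hold for the real libraries was not tested.

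The 10 genes and the lists were chosen with earlier results of these data known. All 10 are named, with the 3 tested genes of smallest p from each other list and, for 4 targets, the 3 genes of highest correlation.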

Additional observations from a re-analysis of the deposited data

Results flagged for a closer look

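In each condition the levels of the 10 genes and of the 21 genes named from the lists (62 values) and the 6 family shares (12 values) were searched for a library far from the other 3, by Dixon's criterion (at the 95% level, on the gap to the nearest library as a share of the range). Of 74 searched values, 5 met it, and chance gives 3.70. *PDK4* in WT4 was at 44.8 CPM with serum (gap 0.904 of the range) and 65.8 CPM without (0.834). *CPT2* in WT4 was at 17.5 CPM with serum (0.836) and 21.0 CPM without (0.904). *DECR1*, from the β-oxidation list, was at 13.5 CPM in serum-free WT3 (0.962), below the other 3 lines. For *PDK4* and *CPT2* the same line met the criterion in both conditions, above the other 3 lines each time. No gene of the 10 had lines that moved in opposite directions.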

How the results depend on the processing

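Across all genes, 4434 passed without the block. With the replicate block 8067 passed, with the block and GC correction 8153, and with the block but without WT4 8938. Leaving out a library or a line gave 1589 to 6128 calls, the lowest without WT1. Of the 10 genes, 1 passed without the block, 8 with the replicate block and 6 with the block and GC correction. DESeq2, upper-quartile scaling, at least 10 counts in every library and protein-coding genes only each gave 2 (*PPARA* and *CPT2*), against 30.2, 24.6, 29.3 and 30.6% of all genes. Without a filter edgeR gave 0 (*PPARA* had an adjusted p of 0.0515), although 3 genes had an unadjusted p under 0.05, against 11.3% of all genes called. Leaving out a library or a line gave 0 to 5 without the block (5 without WT4), with 1 to 3 genes at an unadjusted p under 0.05 in the fits that called 0. All genes were called at 8.78 to 33.5% in these fits, and at 8.78 to 19.9% in those that called 0 of the 10. The blocked fit gave 5, 5, 7 and 9 without WT1, WT2, WT3 and WT4, against 34.2, 37.1, 34.3 and 50.3% of all genes. The cause was not tested.

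Direction reversed for *PPARD* with the block and GC correction (−0.0078) and for *PLIN2* without serum WT4 (0.079; -0.42 to 0.079 over all libraries left out). All 10 genes kept their direction under the other scalings, filters and tests. The difference in the share of *PPARA* among PPAR transcripts was 1.76 to 4.00 percentage points with a library left out and passed only without serum WT3 (4.00, exact permutation p = 0.0286, unadjusted). The difference ran from 2.69 to 6.14 points for *PPARD* and from -0.465 to -0.0433 for *CPT1A*, and passed in no case. Depth limits *ANGPTL4* most, and reads shared by overlapping genes limit *CPT2*.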
